A study of Mus musculus with 6 samples.

Results

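The axon guidance ligands and receptors measured in mouse aorta were the protein-coding genes of the semaphorin, Slit, netrin and ephrin families and of their plexin, neuropilin, Robo, Unc5, DCC/neogenin and Eph receptors. They were picked by a rule on gene symbols, which 69 of the 55487 genes in the count table matched. The families were chosen with earlier results of these data known. Robo4 fell outside the rule and was placed among the related guidance proteins described below. Of the 69, 35 were ligands and 34 were receptors. A rounded count over 10 in all 3 libraries of at least 1 group was required for a test, and 57 of the 69 met it, as did 16565 genes in all. For 56 of the 57 both groups met it. Sema5b met it through the knockout libraries only, so its difference was partly built into its selection. The 12 genes below this limit were Dcc, Efnb3, Epha5, Epha6, Epha8, Epha10, Ntn5, Plxnb3, Robo2, Robo3, Sema4f and Slit1, and none of them had more than 23 counts in any library.

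The series compared aortas of 3 Prdm16 iSM KO mice on a C57BL/6 background, in which smooth muscle cells lose the transcriptional regulator PRDM16, with aortas of 3 control mice of the same background. The iSM KO mice carried Myh11-CreERT2 and were Prdm16 F/F, with exon 9 floxed, while the controls carried the same Cre transgene and 2 wild-type Prdm16 alleles. Both groups received 1 mg tamoxifen per day for 10 days from 8 weeks of age, had no further treatment or injury, and were killed 60 days after a washout of 2 weeks. Myh11-CreERT2 lies on the Y chromosome and acts in smooth muscle cells in general, so only males were used and deletion was not restricted to the aorta. The adventitia was removed before RNA extraction, but the tissue was sequenced in bulk and still held cells in which the Cre is not active.

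Axon guidance proteins were named for steering growing nerve fibres, and they also act between cells of the vessel wall. Class 3 semaphorins are secreted and bind neuropilins, which signal through plexins, whereas most other semaphorins are membrane-bound and bind plexins directly. Netrins signal through DCC, neogenin and the Unc5 receptors, Slits through Robo receptors, and membrane-tethered ephrins through Eph receptor tyrosine kinases on neighbouring cells. Ephrin-B2 is known as a marker of arteries and EphB4 as a marker of veins, and neuropilins also bind vascular endothelial growth factors.

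The libraries held 24911609 to 40460467 counts, and normalized counts are given as CPM, the count of a gene scaled to a common library size after TMM normalization. Prdm16 itself was measured at 183, 223 and 179 CPM in controls 1 to 3 and at 93.8, 113 and 79.8 CPM in iSM KO 1 to 3. The groups did not overlap, and the log2 fold change of iSM KO over control was -1.03 (SE 0.14, FDR = 0.0026). The smooth muscle markers were abundant in both groups, with summed levels of 22497 to 27516 CPM in controls against 24268 to 26745 CPM in iSM KO, and 2 of 8, Myocd and Des, were higher in iSM KO. Markers of other cell types were also present. The 9 endothelial markers summed to 971, 1149 and 594 CPM in the controls and to 338, 544 and 878 CPM in iSM KO, and none of the 9 passed the FDR. The 7 fibroblast markers summed to 1086 to 1321 CPM in controls against 792 to 818 CPM in iSM KO, with 1 of 7 lower, Clec3b. The adipocyte markers summed to 17.0 CPM in control 1, 145 and 85.2 CPM in controls 2 and 3, and 14.2 to 18.1 CPM in iSM KO, with 5 lower and 1 higher of 8 tested. The macrophage sums were 30.7 to 35.1 CPM in controls against 12.5, 12.8 and 36.7 CPM in iSM KO. The neuronal sums were 49.9 to 59.9 CPM in controls against 41.6 to 46.8 CPM in iSM KO, with Elavl4, Th and Dbh at or under 3 counts throughout and, of 3 tested, Uchl1 lower and Tubb3 higher, and the Schwann cell sums were 5.18 to 8.06 and 5.32 to 11.1 CPM.

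Members of these families differed between iSM KO and control aortas in both directions. Genes were called at an FDR of 0.05, from quasi-likelihood tests in edgeR adjusted over all genes tested by the Benjamini-Hochberg method. At this level 11 of the 57 genes differed (19.3%), beside 7.56% of all genes tested. In a fit of protein-coding genes only, the same 11 passed, beside 9.41% of 13162 genes. The semaphorins Sema5b and Sema6c, the receptors Nrp2, Plxna1, Unc5b and Ephb3 and the netrin Ntn4 were higher in iSM KO, which is 12.3% of the 57 beside 4.26% of all genes. The semaphorin Sema3b and the receptors Plxna4, Unc5d and Epha3 were lower, which is 7.02% beside 3.30%. In bulk tissue, fewer cells of a type and less RNA per cell cannot be told apart.

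With the added requirement of a fold change over 2, 4 genes remained (7.02% beside 2.78% of all genes). Of these, Sema5b, Nrp2 and Ntn4 were higher (5.26% beside 1.40%) and Unc5d was lower (1.75% beside 1.38%). Sema5b, which met the count limit through the iSM KO libraries only, is counted in the shares here and above. Without regard to a test, the 3 iSM KO values lay above all 3 control values in 10 of the 57 genes (17.5% beside 15.0% of all genes) and below them in 16 (28.1% beside 13.0%). An unadjusted p under 0.05 was found for 29 of the 57 (50.9% beside 22.1%). The median log2 fold change was -0.14 over the 57 genes, with 22 positive and 35 negative, and -0.01 over all genes tested. With the summed endothelial markers as a covariate, a fit chosen after seeing the data, the median over the 57 turned to 0.01. Without that covariate, the median was -0.23 over the 31 ligands and -0.05 over the 26 receptors. DESeq2, run as an alternative, called the same 11 genes and 9 more, 20 in all beside 10.3% of all genes, and these 9 are given with their DESeq2 FDR or named as such where they appear. Of the 9, 8 also passed in edgeR with no filter on low counts, and Sema3c did not.

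**Figure D1:**
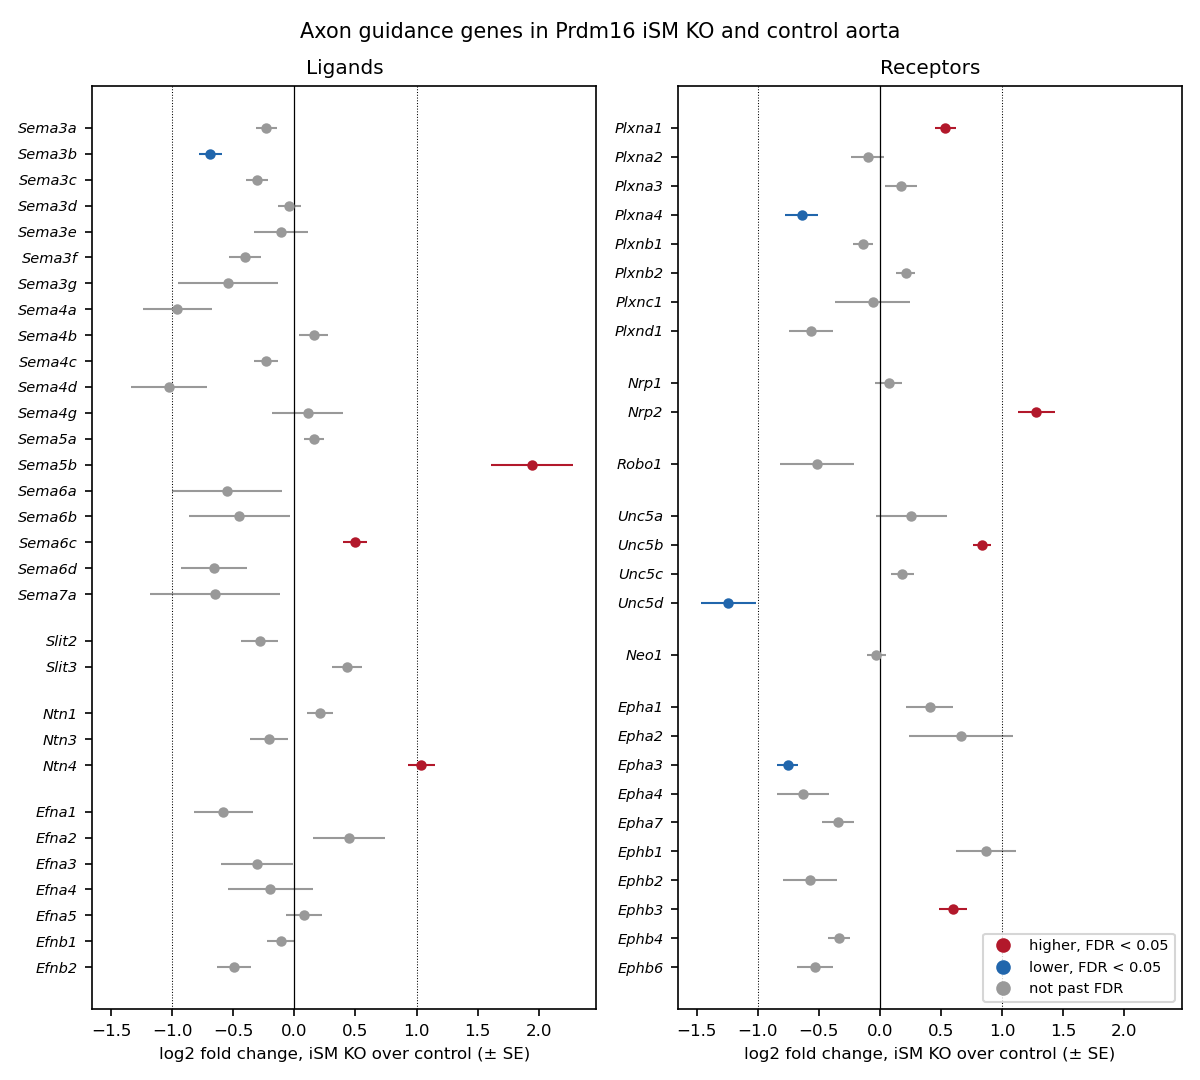
Log2 fold change of iSM KO over control (x axis) with its standard error for the 57 tested axon guidance genes, ligands in the left panel and receptors in the right, grouped by family. Red and blue points are the 7 higher and 4 lower genes at FDR under 0.05, grey points did not pass, and the dotted lines mark a fold change of 2; Sema5b lies furthest to the right at 1.95 and Unc5d furthest to the left at -1.24.

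Among the 19 semaphorins tested, 2 were higher and 1 was lower, beside 4.26% and 3.30% of all genes. Of the 19, 14 had a negative fold change (median log2 fold change -0.30, beside -0.01 over all genes). With the summed endothelial markers as a covariate, Sema3e, Sema3g, Sema6a, Sema6b and Sema7a turned positive, and none of these passed the FDR. Sema5b, a membrane-bound class 5 semaphorin that binds plexin-A1 and plexin-A3 (chromosome 16, 35541145 to 35664732, GRCm38), was at 0.60, 0.83 and 0.34 CPM in controls 1 to 3 and at 2.70, 2.55 and 1.78 CPM in iSM KO 1 to 3. Each iSM KO library lay above each control, but the gene was scarce, and 3 counts equal 0.126 CPM in control 3. The log2 fold change was 1.95 (SE 0.34, FDR = 0.0098), the largest of the 57, and it passed the FDR with any 1 library left out. Sema5b met the count limit through the iSM KO libraries only, so these values are not independent of how it was selected. Its relative Sema5a was at 212 ± 15.0 CPM in controls against 237 ± 11.8 CPM in iSM KO (SD, n = 3) and did not pass (log2 fold change 0.16, FDR = 0.30).

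Sema6c, a membrane-bound class 6 semaphorin (chromosome 3, 95160457 to 95174024), was at 13.7, 12.9 and 15.6 CPM in controls against 20.1, 18.9 and 20.4 CPM in iSM KO. The groups did not overlap, but the difference was modest (log2 fold change 0.50, SE 0.10, FDR = 0.020), and the call was lost without any 1 of the iSM KO libraries. The other class 6 genes named as plexin-A ligands did not pass: Sema6a and Sema6b, which bind plexin-A2 and plexin-A4, had log2 fold changes of -0.55 (FDR = 0.52) and -0.45 (FDR = 0.56), and Sema6d, which binds plexin-A1, had -0.66 (FDR = 0.19). Their iSM KO libraries were far apart, with Sema6d at 3.34, 4.07 and 7.01 CPM, so the groups overlapped.

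Sema3b, a secreted class 3 semaphorin that binds neuropilins (chromosome 9, 107597674 to 107609229), was at 33.3, 37.8 and 32.1 CPM in controls against 22.1, 20.0 and 22.1 CPM in iSM KO. All 3 iSM KO libraries lay below the lowest control, and the log2 fold change was -0.69 (SE 0.09, FDR = 0.0031). The other secreted semaphorins described here as neuropilin ligands had smaller or more variable differences. Sema3c, which binds both neuropilins, was at 158 ± 12.7 CPM in controls against 128 ± 8.39 CPM in iSM KO (log2 fold change -0.30, FDR = 0.078, DESeq2 FDR = 0.037). Sema3f, a ligand chiefly of neuropilin-2, was at 134 ± 26.1 and 101 ± 6.23 CPM (log2 fold change -0.40, FDR = 0.11, DESeq2 FDR = 0.046). For both genes the iSM KO libraries lay below the controls. Sema3a, the classical neuropilin-1 ligand, was at 25.5 ± 1.68 and 21.7 ± 0.75 CPM (log2 fold change -0.23, FDR = 0.16). Sema3g was at 4.61 and 6.13 CPM in iSM KO 1 and 2 but at 16.9 CPM in iSM KO 3, above all controls. The remaining class 3 semaphorins tested, Sema3d and Sema3e, are given after their values were seen. Their log2 fold changes were -0.04 (FDR = 0.84) and -0.11 (FDR = 0.81), and for both genes the groups overlapped.

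Sema4d, a class 4 semaphorin that binds plexin-B1, was at 7.25, 10.5 and 4.61 CPM in controls against 2.60, 3.67 and 4.82 CPM in iSM KO. Its fold change was over 2, but iSM KO 3 lay above control 3 and the FDR was 0.086 (log2 fold change -1.03, SE 0.31). It passed in DESeq2 (FDR = 0.0095), and in edgeR without control 3 (log2 fold change -1.27).

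Both neuropilins were tested, and only Nrp2 passed. Nrp2, a co-receptor for class 3 semaphorins and for lymphangiogenic growth factors (chromosome 1, 62703285 to 62818695), was at 10.8, 8.12 and 10.7 CPM in controls against 27.4, 20.1 and 24.2 CPM in iSM KO. The lowest iSM KO library was well above the highest control, a 2.43-fold difference (log2 fold change 1.28, SE 0.15, FDR = 0.0015), and it stayed between 1.15 and 1.39 with any 1 library left out. Nrp1 was at 59.7 ± 0.98 CPM in controls against 62.8 ± 10.2 CPM in iSM KO, with a log2 fold change of 0.07 (FDR = 0.74). A stretch of 100 bp in Nrp2 transcripts is near-identical to Mrgpre, and how the authors' counting shared such reads is not given in the sources used here.

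Of 8 plexins tested, Plxna1 was higher and Plxna4 was lower. Both encode plexin-A receptors that signal with neuropilins or bind membrane semaphorins directly. Plxna1 (chromosome 6, 89316314 to 89362620) was at 73.3, 82.1 and 68.5 CPM in controls against 111, 106 and 108 CPM in iSM KO. The iSM KO libraries were close together and above all controls (log2 fold change 0.54, SE 0.08, FDR = 0.0059). Exons of the antisense gene Gm26811 cover 10.7% of the Plxna1 exon bases, and whether counting used strand is not given in the sources used here. Gm26811 was given at most 91.1 counts in a library. How many antisense reads were counted for Plxna1 was not tested.

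Plxna4 (chromosome 6, 32144268 to 32588192) was at 77.6, 102 and 72.6 CPM in controls against 48.1, 55.0 and 58.5 CPM in iSM KO. The groups did not overlap, although control 2 stood well above the other controls (log2 fold change -0.64, SE 0.13, FDR = 0.021). The call was lost without iSM KO 1 or without iSM KO 2. The other receptors of the family named here did not pass. Plxna3, a further Sema5b receptor, was at 5.28 ± 0.35 and 5.95 ± 0.36 CPM (FDR = 0.49), and Plxnb2, the plexin with the highest level per exon length, was at 175 ± 5.52 and 203 ± 11.2 CPM (log2 fold change 0.21, FDR = 0.15). Plxnd1, an endothelial receptor for Sema3e, was at 94.6, 134 and 84.0 CPM in controls against 60.7, 66.0 and 85.1 CPM in iSM KO. iSM KO 3 overlapped the controls, and the gene did not pass in the edgeR fit of filtered counts (log2 fold change -0.56, FDR = 0.11, DESeq2 FDR = 0.019).

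Among the netrins, Ntn4 alone passed of 3 tested. Ntn4, a laminin-related netrin of basement membranes (chromosome 10, 93640681 to 93747207), was at 50.5, 48.2 and 39.2 CPM in controls against 90.3, 104 and 88.8 CPM in iSM KO. Every iSM KO library was far above every control, a 2.05-fold difference (log2 fold change 1.04, SE 0.11, FDR = 0.00093), and the fold change was over 2 in 4 of the 6 fits without 1 library. Ntn1, the classical netrin ligand of DCC and Unc5 receptors, was far more abundant, at 442 ± 54.1 CPM in controls against 512 ± 24.3 CPM in iSM KO, and did not pass (log2 fold change 0.21, FDR = 0.28).

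Of 4 Unc5 netrin receptors tested, Unc5b was higher, Unc5d was lower and the other two did not pass. Unc5b, the Unc5 receptor best known from blood vessels (chromosome 10, 60762593 to 60831581), was at 42.5, 43.5 and 45.3 CPM in controls against 74.4, 80.6 and 79.1 CPM in iSM KO. The spread within each group was small beside the gap between them, and the log2 fold change was 0.83 (SE 0.07, FDR = 0.00029), the smallest FDR of the 57 genes. Unc5d (chromosome 8, 28646717 to 29219636) was at 6.96, 4.45 and 4.74 CPM in controls against 2.04, 2.69 and 2.11 CPM in iSM KO. All iSM KO libraries lay below all controls (log2 fold change -1.24, SE 0.22, FDR = 0.011), but the call was lost without iSM KO 1. Unc5c had the highest level per exon length of the Unc5 receptors in controls. It was at 142 ± 3.26 and 161 ± 18.3 CPM and did not pass (log2 fold change 0.18, FDR = 0.29). The antisense gene Gm15688, at 15 to 66 counts per library, overlaps the Unc5c exons. Neo1, which encodes the netrin receptor neogenin, was at 187 ± 9.92 and 182 ± 7.51 CPM, with a log2 fold change of -0.03 (FDR = 0.84).

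No Slit or Robo gene passed the FDR. Slit3, a secreted Robo ligand, was at 549, 604 and 430 CPM in controls against 715, 700 and 718 CPM in iSM KO. The iSM KO libraries lay above all controls and close together, with control 3 the lowest (log2 fold change 0.43, SE 0.12, FDR = 0.074, DESeq2 FDR = 0.0094). Robo1 was scarce, at 6.36, 3.64 and 3.10 CPM in controls against 2.48, 2.69 and 4.05 CPM in iSM KO, and the groups overlapped (FDR = 0.35). Robo4, outside the symbol rule and named after its values were seen, was scarcer still. It was at 0.93, 1.72 and 0.55 CPM in controls against 0.25, 0.60 and 0.71 CPM in iSM KO (log2 fold change -1.07, FDR = 0.25).

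Of 10 Eph receptors tested, Ephb3 was higher and Epha3 was lower, while none of the 7 ephrins tested passed. Epha3, a receptor for A-type ephrins (chromosome 16, 63543534 to 63864175), was at 51.9, 55.3 and 62.0 CPM in controls against 33.0, 33.0 and 34.2 CPM in iSM KO. The iSM KO libraries were nearly equal and far below all controls (log2 fold change -0.76, SE 0.08, FDR = 0.0011). No A-type ephrin passed. Efna5 was at 68.9 ± 14.1 and 72.7 ± 9.69 CPM (log2 fold change 0.08, FDR = 0.80), and the much scarcer Efna2 was at 0.88 ± 0.13 and 1.20 ± 0.31 CPM (FDR = 0.42). Efna1 and Efna3, named after their values were seen, had log2 fold changes of -0.58 (FDR = 0.20) and -0.30 (FDR = 0.59).

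Ephb3, a receptor for B-type ephrins (chromosome 16, 21204755 to 21223305), was at 10.1, 8.90 and 9.73 CPM in controls against 13.9, 13.4 and 16.3 CPM in iSM KO. The groups did not overlap, and the log2 fold change was 0.60 (SE 0.12, FDR = 0.015). Of its ligands, Efnb1 was at 8.76 ± 0.62 and 8.14 ± 0.52 CPM (FDR = 0.63). Efnb2 was at 90.1, 97.2 and 80.9 CPM in controls against 52.9, 59.4 and 77.8 CPM in iSM KO. Its iSM KO libraries lay below the controls, with iSM KO 3 the nearest (log2 fold change -0.50, SE 0.14, FDR = 0.065, DESeq2 FDR = 0.011). Ephb4, the partner receptor of ephrin-B2 between arteries and veins, was at 51.6 ± 2.96 and 40.9 ± 3.72 CPM (log2 fold change -0.33, FDR = 0.055, DESeq2 FDR = 0.037). The other 2 Eph receptors among the 9 that DESeq2 added were also at lower values, Epha4, which binds both ephrin types, with a log2 fold change of -0.63 (FDR = 0.12) and Ephb6, which lacks kinase activity, with -0.53 (FDR = 0.061).

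**Figure D2:**
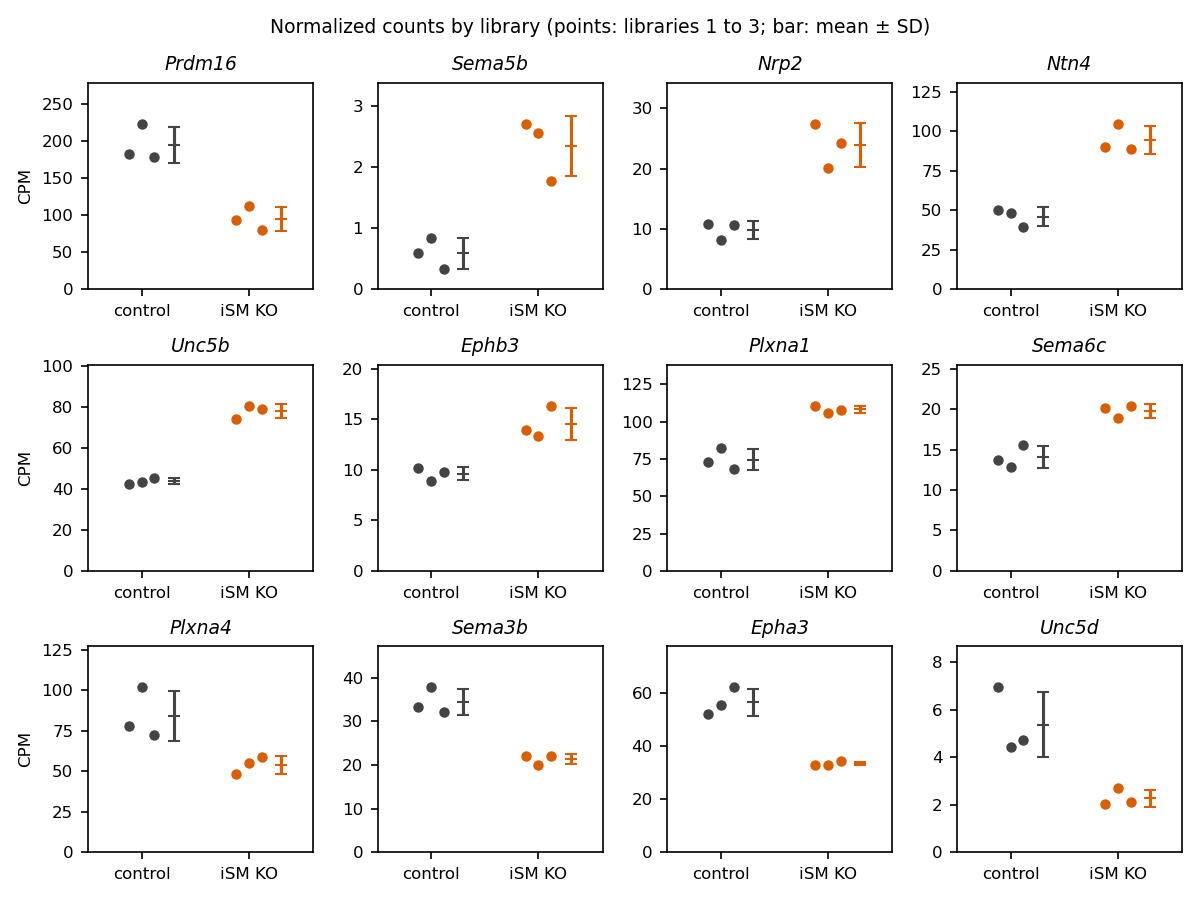
CPM (y axis, from 0) in each of the 3 control (grey) and 3 iSM KO (orange) libraries for Prdm16 and the 11 axon guidance genes with an FDR under 0.05, ordered by fold change. Points are libraries 1 to 3 from left to right and the bars are the mean ± SD; in each panel the groups do not overlap, as for Nrp2 with at most 10.8 CPM in controls against at least 20.1 CPM in iSM KO.

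Levels of different genes can be compared only per exon length, and they are given here as CPM per kilobase of annotated exon. On this scale control aortas held far more of some ligands than of most receptors. The highest levels in controls were those of Slit3 at 101 ± 17.0 CPM per kilobase and Ntn1 at 72.6 ± 8.89. Sema3f was next at 38.4 ± 7.49, followed by Sema3c at 28.9 ± 2.32. The levels of Sema3f and Sema3c differed by little more than the spread of Sema3f. The most abundant receptors were Plxnb2 at 26.7 ± 0.84 and Neo1 at 25.3 ± 1.34 CPM per kilobase. Nrp1 was at 16.6 ± 0.27 and Unc5c at 14.6 ± 0.34, while Ephb4 at 11.8 ± 0.68 led the Eph receptors. The levels of Nrp1 and Unc5c depend strongly on the exon length used. It was 3597 and 9703 bp here, against 9785 and 19135 bp over all annotated transcripts. Among the ephrins, Efnb2 at 18.6 ± 1.70 and Efna5 at 17.1 ± 3.49 did not differ beyond their spread, and their order turned when all annotated transcripts set the length. Robo1, the only one of Robo1, Robo2 and Robo3 tested, was at 0.58 ± 0.23.

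None of the 11 genes past the FDR had the highest level of its family in controls. Ntn4 rose from 12.6 ± 1.64 to 25.9 ± 2.37 CPM per kilobase, still below Ntn1 in both groups. Unc5b rose from 7.46 ± 0.24 to 13.3 ± 0.55, and Unc5c was at 16.5 ± 1.88 in iSM KO. The order of Unc5b and Unc5c in iSM KO depends on the exon length used. Unc5b has 5869 bp and Unc5c 9703 bp in the basic set. Over all annotated transcripts they have 6258 and 19135 bp, which turns the order. Nrp2 rose from 0.95 ± 0.15 to 2.30 ± 0.35, far below Nrp1 at 17.4 ± 2.84. The called plexin-A receptors kept their order and moved apart. Plxna1 was at 8.26 ± 0.76 and Plxna4 at 6.52 ± 1.21 in controls, and they were at 11.98 ± 0.25 and 4.18 ± 0.41 in iSM KO. In controls that gap was of the size of the spread of the pair, and in iSM KO it was many times larger. Epha3 fell from 8.96 ± 0.82 to 5.30 ± 0.11 and was below Ephb4 in both groups.

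**Figure D3:**
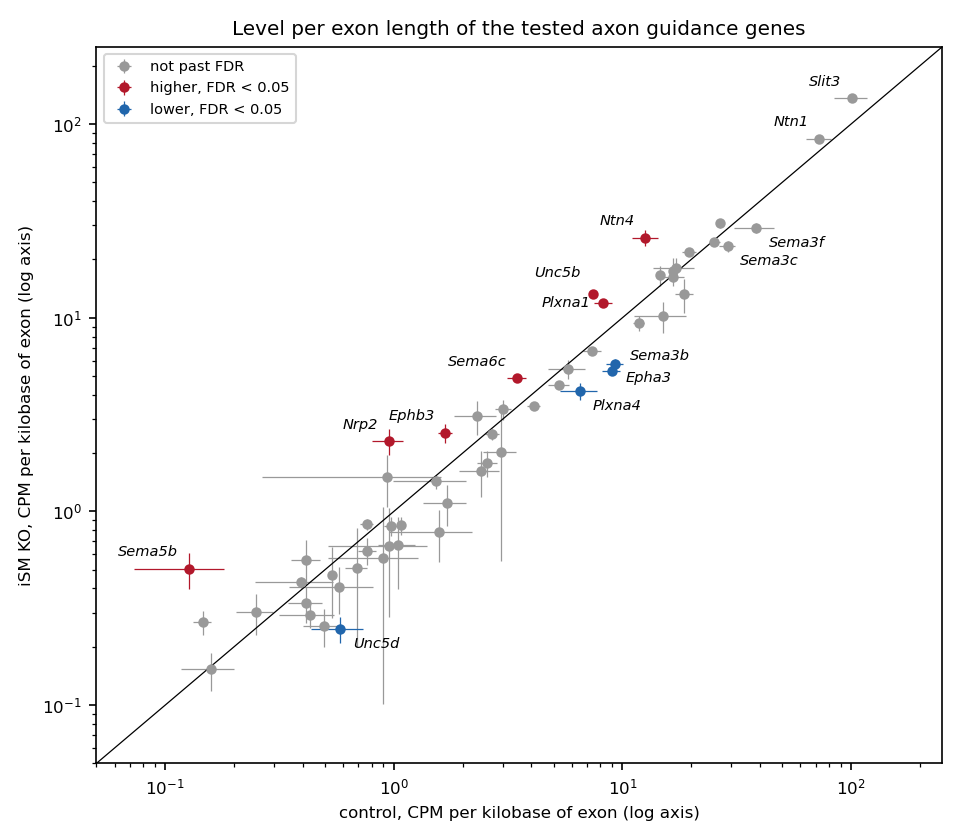
Mean level per exon length (CPM per kilobase, both axes logarithmic) of the 57 tested genes in control (x axis) and iSM KO (y axis) libraries, with bars of 1 SD over 3 libraries and the line of equal levels. Slit3 at 101 and Ntn1 at 72.6 in controls lie at the top right, and the red and blue points are the genes higher and lower at FDR under 0.05, with Ntn4, Unc5b and Nrp2 clearly above the line and Epha3, Plxna4 and Unc5d below it.

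Several genes of the families followed the order of the endothelial markers within each group, in which control 3 was below control 1 and control 1 below control 2, and iSM KO 1 was below 2 and 2 below 3. This order was found in 16 of the 57 genes (28.1%) and in 4.39% of all genes tested, a description of 6 libraries made after the values were seen. The 16 were Efna1, Efnb1, Efnb2, Epha4, Ntn1, Plxna2, Plxna4, Plxnb2, Plxnd1, Sema3f, Sema4b, Sema4d, Sema6a, Sema6b, Sema6d and Sema7a. Plxna4 was the only one of the 11 called genes among them. Ntn1, Plxnb2 and Sema4b had this order too but positive log2 fold changes (0.21, 0.21 and 0.16). The order takes no account of the size of the gaps, as for Plxnb2 at 174, 181 and 170 CPM in controls 1 to 3. With the endothelial marker sum as a covariate, 7 of the 11 passed the FDR. Over all genes tested, 4.23% passed in that fit, beside 7.56% without the covariate. The log2 fold changes of these 7 were 1.15 for Nrp2, 1.12 for Ntn4, 0.85 for Unc5b, 0.66 for Ephb3, 0.58 for Plxna1, -0.63 for Sema3b and -0.79 for Epha3. Plxna4 went from -0.64 to -0.44 (FDR = 0.091) and Sema6c from 0.50 to 0.44 (FDR = 0.085). The fold changes of Sema5b, from 1.95 to 1.91 (FDR = 0.055), and Unc5d, from -1.24 to -1.19 (FDR = 0.061), hardly moved. Why these calls were lost was not tested. Among genes that did not pass in either fit, Sema6a went from -0.55 to 0.35 and Sema6b from -0.45 to 0.10, and Sema4d went from -1.03 to -0.43. The fibroblast and neuronal sums did separate the groups, as did the sum of skeletal and cardiac muscle markers (4.36 to 7.76 CPM in controls, 3.87 to 4.22 CPM in iSM KO), and their part in these results was not tested.

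**Figure D4:**
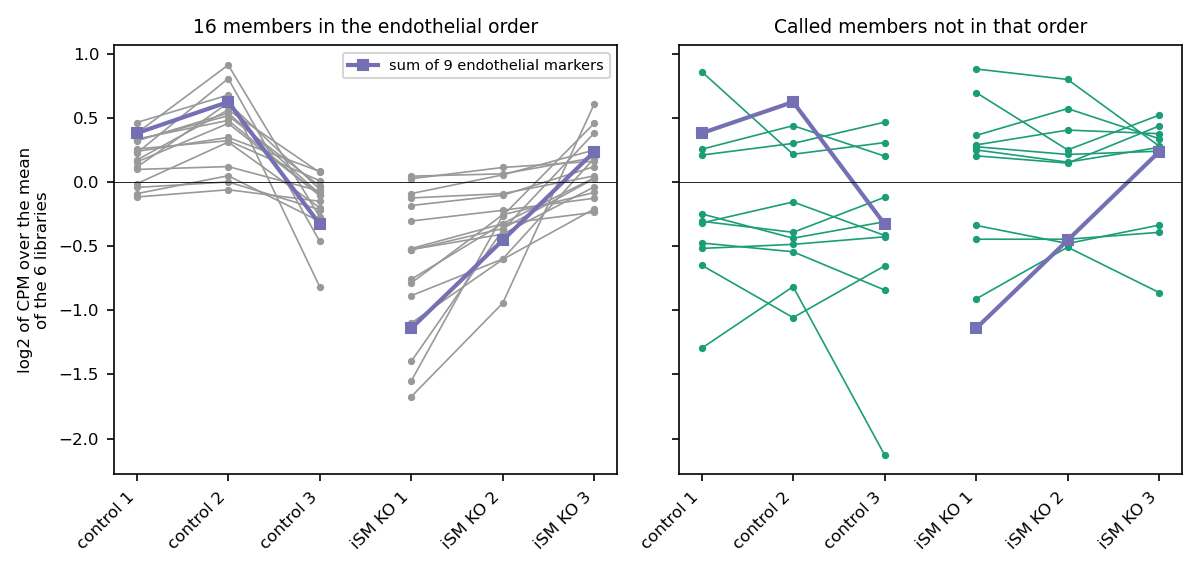
Log2 of CPM over the mean of the 6 libraries (y axis) for each library (x axis), with lines joining the libraries of a group and the summed 9 endothelial markers in purple. Grey lines on the left are the 16 genes with the order of that sum in both groups, and green lines on the right are the 10 called genes without it. The endothelial sum runs from 338 to 1149 CPM, and with it as a covariate 3 of these 10, Sema5b, Sema6c and Unc5d, did not pass the FDR. In that fit 4.23% of all genes passed, beside 7.56% without the covariate.

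Genes that act with or downstream of these receptors, and related guidance proteins, were examined as a list of 88, of which 81 were tested. Of the 81, 6 were higher and 2 were lower, which is 9.88% beside the 7.56% of all genes, and the median log2 fold change was 0.02. Ablim1, an actin-binding LIM protein, was at 58.9, 62.0 and 39.4 CPM in controls against 122, 131 and 132 CPM in iSM KO. All iSM KO libraries were above all controls, the largest rise of the list among called genes (log2 fold change 1.26, SE 0.15, FDR = 0.0016). Tiam1, an exchange factor that activates Rac, was at 12.1, 8.48 and 10.4 CPM in controls against 2.77, 3.73 and 5.01 CPM in iSM KO. Its groups did not overlap either, in the opposite direction (log2 fold change -1.43, SE 0.22, FDR = 0.0058).

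The other called genes of that list changed less than 2-fold. Ntng2, which encodes the membrane-anchored netrin-G2, rose from 13.3 ± 0.94 to 24.4 ± 0.18 CPM (log2 fold change 0.87, FDR = 0.00079), and Mical3, a monooxygenase of the MICAL family, rose from 191 ± 11.7 to 324 ± 38.2 CPM (0.76, FDR = 0.0029). Farp1 and Trio, the latter an exchange factor downstream of netrin receptors, had log2 fold changes of 0.62 (FDR = 0.0080) and 0.52 (FDR = 0.014). Flt1, which encodes vascular endothelial growth factor receptor 1, rose from 34.7 ± 5.47 to 53.2 ± 4.61 CPM (0.61, FDR = 0.017). Rgs3, named after its value was seen, was lower (-0.42, FDR = 0.042). With 1 library left out, Trio passed in 3, Flt1 in 4 and Rgs3 in 2 of 6 fits, and the others in all 6.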

How the data were processed

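Bulk RNA-seq was performed on ribosomal RNA-depleted libraries of 6 aortas. Per the submitters' processing notes and the study's methods, reads were demultiplexed with bcl2fastq and mapped and quantified with DRAGEN against the Ensembl mouse reference (mm10). The values the authors deposited are estimated counts per gene and library, neither normalized nor rounded. All columns were matched to samples by name, and no pair of libraries was as alike as sampling noise allows. Exon 9 of Prdm16 cannot be separated in gene counts.

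Counts were rounded, filtered (count over 10 in all libraries of at least 1 group) and tested with edgeR 4.0.16 (TMM, glmQLFit, glmQLFTest, R 4.3.3) over the whole table, with Benjamini-Hochberg adjustment (FDR). Replicates are different mice. The script was tested on simulated data. Alternatives were DESeq2 1.42.0, limma-voom 3.58.1, other size factors and filters, protein-coding genes only, the replicate number as a block, and each library left out. Members and lists were chosen with earlier results of these data known.

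Positions and exon lengths came from GENCODE M21 (basic set, GRCm38), which held 69 of 69 genes, and near-identical transcripts from blastn 2.17.0 (at least 95% identity over 100 bp). Named genes were those past the FDR, those that DESeq2 or limma-voom alone called, those with a fold change over 2, the highest per exon length in each family, and textbook binding partners of called genes. Of the 88 associated genes, those past the FDR with a fold change over 2 and the 5 others with the smallest FDR were named.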

Additional observations from a re-analysis of the deposited data

How the results depend on the processing

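The 11 calls at FDR under 0.05 all held in 7 of the alternatives that keep the 6 libraries and add no covariate, namely DESeq2, limma-voom, DESeq2's size factors, no filter, filterByExpr, protein-coding genes only and the replicate block. Numbers of called members moved by over 1.5 times to 20 (12 lower) of 57 in DESeq2 (35.1% beside 10.3% of all genes), to 19 (11 lower) of 69 with no filter (27.5% beside 5.79%) and to 7 (2 lower) of 57 with the endothelial covariate (12.3% beside 4.23%), which left 2 with a fold change over 2. The associated genes called numbered 13 in DESeq2. With 1 library left out, 8 to 14 members were called (14.0% to 24.6%, beside 3.06% to 8.41% of all genes in these fits). Of them, 6 to 9 were higher and 2 to 8 lower, with 2 lower without iSM KO 1 and 8 without iSM KO 3. A fold change over 2 was held by 3 to 6. The associated genes called ranged from 5, without iSM KO 2, to 10. Prdm16 passed the FDR throughout, with log2 fold changes of -1.17 to -0.92. Why these numbers moved was not tested. Same-numbered libraries did not deviate together (correlations of -0.132, -0.046 and -0.107), so the numbers were not taken as pairs. With the replicate block, the same 11 members were called (7 higher, 4 lower, 4 with a fold change over 2), 6 associated genes were called, the median was -0.133 and Prdm16 was at -1.04. An exact permutation test of 1 gene over 3 and 3 mice has 0.1 as its smallest two-sided p. Sema5b had as few as 8 counts in a library.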

Other observations

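The values here were noticed in the data and are given without a test beyond edgeR's. Ephb1, a receptor for B-type ephrins, was at 1.04, 0.91 and 0.88 CPM in controls and 1.74, 1.49 and 1.97 CPM in iSM KO, without overlap, and did not pass the FDR (log2 fold change 0.87, FDR = 0.067). Sema4a, a membrane-bound class 4 semaphorin, was at 1.97, 1.80 and 1.34 CPM in controls and 0.66, 0.95 and 1.04 CPM in iSM KO, also without overlap (-0.96, FDR = 0.081). For 4 genes that did not pass, the call at a fold change over 2 was reached when 1 library was left out. Epha2 was at 2.12, 6.71 and 2.18 CPM in controls and 7.78, 4.21 and 5.72 CPM in iSM KO, and its log2 fold change was 0.66 with all libraries and 1.46, past the FDR, without control 2. Sema3g had a log2 fold change of -0.54 with all libraries and -1.33, past the FDR, without iSM KO 3. Sema6d went from -0.66 to -1.04 without iSM KO 3, and Sema4d from -1.03 to -1.27 without control 3.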
